A study of Mus musculus with 24 samples.

Results

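The Rbfox, Celf and Mbnl splicing factors were described here as 7 genes, Rbfox1, Rbfox2, Celf1, Celf2, Mbnl1, Mbnl2 and Mbnl3, among the 19920 genes that the array measured with a single gene symbol. Their rows were taken by the platform's gene symbol. They had 9 of the 35556 gene-level rows, called transcript clusters, and 120 of the 241576 exon-level probe sets, each probe set being a small group of probes within a gene. Rbfox1 had 24 probe sets, Rbfox2 20, Celf1 21, Celf2 21, Mbnl1 12, Mbnl2 10 and Mbnl3 12. The exon-level annotation lists 4 of them under older symbols, A2bp1 for Rbfox1, Rbm9 for Rbfox2, Cugbp1 for Celf1 and Cugbp2 for Celf2.

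The study followed splicing and expression through heart development and through cardiomyocyte differentiation in culture, with 2 arrays in each of 6 groups of mouse samples. Undifferentiated embryonic stem (ES) cells were at day 0 of culture. Embryonic bodies (EB), the aggregates that differentiating ES cells form, were at day 7, and cardiac bodies (CB) at day 14, in a medium with serum. The tissue groups were whole hearts from embryos at day E17.5, from pups at postnatal day 1 (P1) and from adults, whose age in days the labels do not give. The labels name no strain, sex, stem cell line, genetic change or drug for any group, and do not say whether the 2 arrays of a group came from separate cultures or animals. The p-values therefore measure the spread between these arrays, which may be technical.

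All 7 proteins bind short motifs in pre-mRNA and shift the choice of nearby exons, often in opposite directions according to whether they bind upstream or downstream of the exon. Rbfox proteins recognise a UGCAUG element, Celf proteins GU-rich stretches, and Mbnl (muscleblind-like) proteins YGCY elements, where Y is a pyrimidine. In heart and skeletal muscle Celf and Mbnl proteins are known as antagonists whose balance turns around birth toward Mbnl, and Mbnl proteins are best known for being sequestered by expanded repeats in myotonic dystrophy. The transcripts of these factors are themselves alternatively spliced.

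All values are log2 signals, so that a difference of 1 is a 2-fold change of the same row between groups. A difference was called when its Benjamini-Hochberg adjusted p, over all genes in that comparison, was under 0.05 in limma's moderated test, and it is given ± its standard error. Signals of different genes come from different probes and were not compared. The median of all gene-level rows lay between 5.61 and 5.76 on every array and that of all exon-level probe sets between 6.4 and 6.53. The arrays of a group correlated over all genes with r between 0.971 at P1 and 0.993 in ES cells. The mean of 10 cardiomyocyte markers was 5.40 on both ES cell arrays, 5.47 and 5.85 in embryonic bodies, and 11.01 or more on every cardiac body and heart array, so the cardiac labels were borne by their markers. Among them the atrial genes stood apart on adult replicate 1, with 5.42 for Myl7 and 10.1 for Nppa beside 11.27 and 12.79 on replicate 2, and each adult result below is given with its value where leaving out either adult array ended the call. Cardiac bodies also kept 6 of 6 pluripotency markers above the array median, with a mean of 10.19 beside 11.13 in ES cells and 4.61 in E17.5 hearts. At exon level the adult hearts stood apart, since 13.5% of all probe sets tested changed in relative signal from P1 to adult and none did from E17.5 to P1. Adult hearts differed from each other group in 13.5% to 18.2% of probe sets, beside 1.78% between ES cells and E17.5 hearts. The adult samples carry record numbers apart from those of all other groups and may have been added separately. The labels name no batch, and any such difference cannot be told apart from the adult stage.

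The family split at gene level. Rbfox1, Celf2, Mbnl1 and Mbnl2 were lowest in ES cells or embryonic bodies and highest in adult hearts, Rbfox2 and Celf1 were lowest in adult hearts, and Mbnl3 was highest at E17.5. A moderated F test over the 6 groups was called for all 7 genes, beside 59.6% of all genes. The most different pair of patterns was Rbfox1 and Celf1, with a correlation of -0.87 over the 12 arrays, and the most alike pair was Mbnl1 and Mbnl2, with 0.97. These correlations describe 12 arrays that fall into 6 groups, and no p is given.

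**Figure D1:**
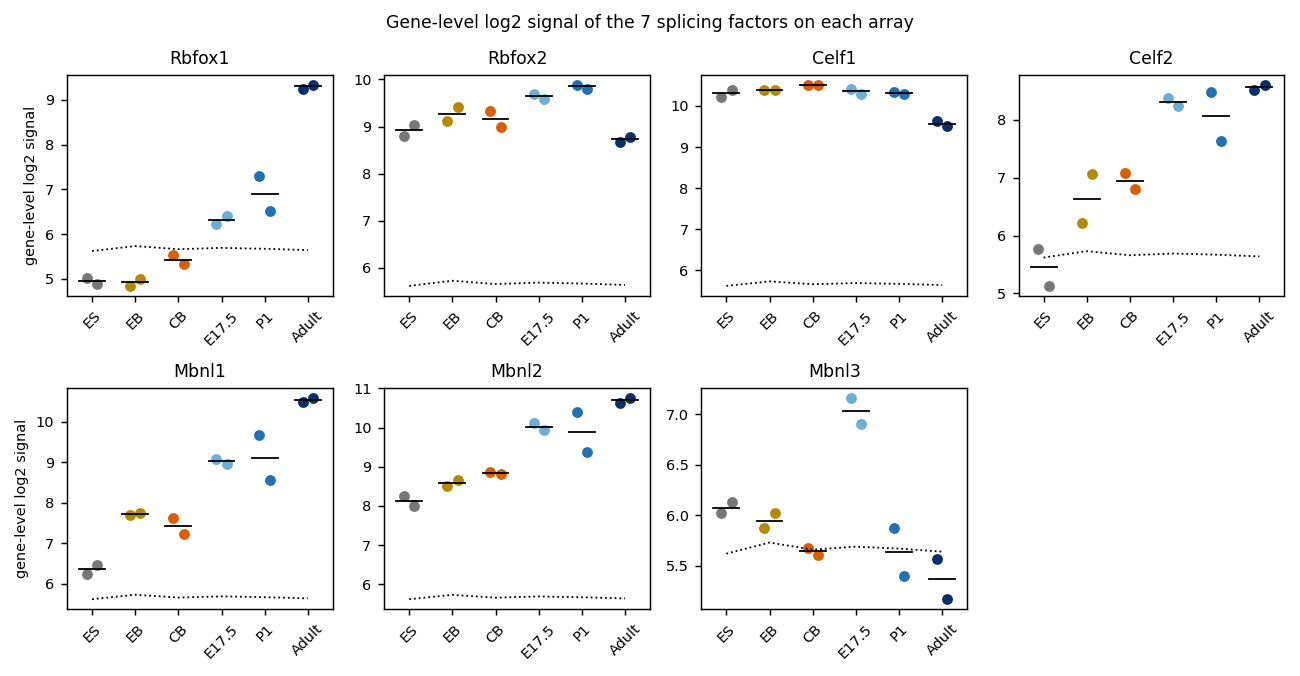
Gene-level log2 signal of each splicing factor (vertical axis) on the 12 arrays, by group (horizontal axis: ES cells, embryonic bodies, cardiac bodies, and hearts at E17.5, P1 and adult). Points are arrays, bars are the means of the 2 arrays and the dotted line is the group median of all genes; Rbfox1 climbs from 4.95 in ES cells to 9.30 in adult hearts, while Celf1 stays between 10.31 and 10.51 until it drops to 9.57 in adult hearts.

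Rbfox1, the muscle and brain member of its family, rose most between birth and adulthood. It read 5.01 and 4.89 in ES cells, 4.84 and 5.0 in embryonic bodies, 5.52 and 5.33 in cardiac bodies, 6.22 and 6.41 at E17.5, 7.29 and 6.52 at P1, and 9.25 and 9.34 in adult hearts. All 3 culture groups lay below the median of all genes, and the adult arrays lay far above every other array. Adult hearts exceeded P1 hearts by 2.39 ± 0.23 (limma adjusted p = 1.24e-05) and E17.5 hearts by 2.98 ± 0.23 (limma adjusted p = 1.12e-06), and E17.5 hearts exceeded ES cells by 1.36 ± 0.23 (limma adjusted p = 0.000369). In the order of the means, embryonic bodies, ES cells and cardiac bodies did not differ from each other as neighbours beyond the threshold, nor did E17.5 from P1, while cardiac bodies and E17.5 hearts did (0.89, limma adjusted p = 0.0122), as did P1 and adult hearts. The 2 P1 arrays differed by 0.76, where all but the outer 5% of genes on either side differed by -0.64 to 1.

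Rbfox2, the broadly expressed member, moved the other way in adult hearts. Its values were 8.81 and 9.04 in ES cells, 9.11 and 9.41 in embryonic bodies, 9.33 and 9.0 in cardiac bodies, 9.69 and 9.58 at E17.5, 9.89 and 9.80 at P1, and 8.68 and 8.78 in adult hearts. Both adult arrays were below all 10 others. Rbfox2 rose by 0.71 ± 0.18 from ES cells to E17.5 hearts (limma adjusted p = 0.0079), a call lost without ES replicate 1 (0.60) or E17.5 replicate 1 (0.66), and adult hearts were lower than P1 hearts, with a change of -1.12 ± 0.18 (limma adjusted p = 0.000594). From lowest to highest its means ran adult, ES cells, cardiac bodies, embryonic bodies, E17.5 and P1, and no neighbours in that order differed beyond the threshold. This and the later orders use pairs of groups beyond the main comparisons, in which 50.7% (adult and ES), 41.8% (P1 and ES), 27.4% (E17.5 and EB) and 32.4% (P1 and CB) of all genes were called.

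Celf1, which often opposes Mbnl proteins at muscle exons, was flat until the adult stage. Its row with the higher mean read 10.22 and 10.40 in ES cells, 10.40 and 10.38 in embryonic bodies, 10.52 and 10.50 in cardiac bodies, 10.42 and 10.30 at E17.5, 10.34 and 10.30 at P1, and 9.64 and 9.51 in adult hearts. The change from P1 to adult was -0.75 ± 0.16 (limma adjusted p = 0.00315). A second Celf1 row showed the same flat course, between 8.59 and 8.91 on all 10 arrays before adulthood, and then 6.25 and 6.14, a change from P1 of -2.55 ± 0.17 (limma adjusted p = 1.45e-06). In the order of the main row's means, adult hearts were set off from the next group, ES cells, by 0.74 (limma adjusted p = 0.00151), and no other neighbours differed beyond the threshold. The 2 rows thus gave adult falls of different size. With the median of the exon-level probe sets as the gene level, Celf1's change was -0.50 both from P1 and from E17.5 to adult and was not called (limma adjusted p = 0.111 and 0.0986).

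Celf2 rose early rather than late. It read 5.77 and 5.13 in ES cells, 6.21 and 7.07 in embryonic bodies, 7.08 and 6.81 in cardiac bodies, 8.37 and 8.24 at E17.5, 8.48 and 7.64 at P1, and 8.52 and 8.61 in adult hearts. Embryonic bodies exceeded ES cells by 1.20 ± 0.32 (limma adjusted p = 0.0183) and E17.5 hearts exceeded ES cells by 2.86 ± 0.32 (limma adjusted p = 1.67e-05), and no neighbours differed beyond the threshold except ES cells from embryonic bodies and cardiac bodies from P1 hearts (1.11, limma adjusted p = 0.0175). The embryonic body call was lost without ES replicate 2 (0.88) or EB replicate 2 (0.77). A second Celf2 row stayed between 3.02 and 4.20 on all arrays, below the median of all genes. Its values equal those of the single probe set 10479949 on all 12 arrays, and whether it covers the same transcripts as the main row is not given in the sources used here. With it averaged in, the change from ES cells was 0.67 in embryonic bodies and 0.79 in cardiac bodies, neither called.

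Mbnl1, the main muscleblind protein of muscle, rose in steps. It read 6.25 and 6.47 in ES cells, 7.69 and 7.75 in embryonic bodies, 7.63 and 7.23 in cardiac bodies, 9.08 and 8.95 at E17.5, 9.67 and 8.56 at P1, and 10.49 and 10.59 in adult hearts. The step from ES cells to embryonic bodies was 1.36 ± 0.29 (limma adjusted p = 0.00465), that from ES cells to E17.5 hearts 2.66 ± 0.29 (limma adjusted p = 1.26e-05) and that from P1 to adult 1.42 ± 0.29 (limma adjusted p = 0.00246; 0.87 without P1 replicate 2). Its means ran from ES cells through cardiac bodies, embryonic bodies, E17.5 and P1 to adult, and of these neighbours cardiac and embryonic bodies, and E17.5 and P1, did not differ beyond the threshold. Cardiac bodies exceeded ES cells by 1.07 ± 0.29 (limma adjusted p = 0.034), a call lost in 8 of the 12 fits that left out 1 array, where the change ranged from 0.87 to 1.27: those without either ES, CB, E17.5 or adult array.

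Mbnl2, the related protein that is prominent in brain, ran a similar course with smaller changes. It read 8.25 and 8.0 in ES cells, 8.52 and 8.67 in embryonic bodies, 8.86 and 8.82 in cardiac bodies, 10.11 and 9.93 at E17.5, 10.39 and 9.39 at P1, and 10.64 and 10.76 in adult hearts. E17.5 hearts exceeded ES cells by 1.90 ± 0.26 (limma adjusted p = 8.93e-05). Adult hearts exceeded P1 hearts by 0.81 ± 0.26 (limma adjusted p = 0.0341), which was 1.31 without P1 replicate 1 and was not called without P1 replicate 2 (0.31) or without either adult array (0.87 and 0.75). Of the neighbours in its order only cardiac bodies and P1 hearts differed beyond the threshold (1.05, limma adjusted p = 0.0076). The P1 arrays differed by 1.11 for Mbnl1 and 1.0 for Mbnl2, replicate 1 being the higher for both, as it was for Rbfox1 and Celf2.

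Mbnl3, the member known to hold back muscle differentiation, had a single peak. It read 6.02 and 6.13 in ES cells, 5.87 and 6.02 in embryonic bodies, 5.68 and 5.61 in cardiac bodies, 7.16 and 6.90 at E17.5, 5.87 and 5.40 at P1, and 5.57 and 5.17 in adult hearts. Both E17.5 arrays were above all 10 others, and in the order of means only ES cells and E17.5 hearts differed as neighbours beyond the threshold. E17.5 hearts exceeded ES cells by 0.96 ± 0.21 (limma adjusted p = 0.0025), and Mbnl3 was the only member called between E17.5 and P1, with a change of -1.39 ± 0.21 (limma adjusted p = 0.00174). The erythroid marker list, with 3 measured genes, also had its highest heart values at E17.5, 8.01 and 9.30 beside 5.83 to 6.79 at P1 and in adults, and its part in the Mbnl3 values was not tested.

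The promoters of the 3 members that rose from P1 to adult are shown to set their start sites side by side, each as the 250 bases before a RefSeq start in build GRCm38.p6, on the plus strand and 5′ to 3′. RefSeq gave 12 such windows for 6 members; Rbfox2 had none in the table used. Capitals mark matches on either strand to 7 motifs: the TATA box as TATAAA, the CCAAT box, the GC box as GGGCGG, the E-box of myogenic factors as CAGCTG, the GATA motif as AGATAA, the M-CAT motif of TEAD factors as CATTCC and the MEF2 motif as CTANNNNTAG. A TATAAA on each strand overlaps in 1 run of capitals of Mbnl1 start 1, and GGGCGG matches overlap in 1 run of Mbnl1 start 2.
Rbfox1 start 1, chr16:5884543-5884792: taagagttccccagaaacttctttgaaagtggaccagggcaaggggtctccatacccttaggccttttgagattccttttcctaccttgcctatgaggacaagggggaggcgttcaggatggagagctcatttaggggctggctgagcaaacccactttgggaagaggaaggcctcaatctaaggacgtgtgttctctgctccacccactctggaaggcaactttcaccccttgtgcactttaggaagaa
Rbfox1 start 2, chr16:7069585-7069834: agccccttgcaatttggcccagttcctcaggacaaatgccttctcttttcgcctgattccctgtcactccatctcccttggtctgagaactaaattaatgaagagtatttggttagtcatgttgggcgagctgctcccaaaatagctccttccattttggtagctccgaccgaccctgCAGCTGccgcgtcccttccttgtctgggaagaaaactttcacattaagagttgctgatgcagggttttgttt
Mbnl1 start 1, chr3:60472580-60472829: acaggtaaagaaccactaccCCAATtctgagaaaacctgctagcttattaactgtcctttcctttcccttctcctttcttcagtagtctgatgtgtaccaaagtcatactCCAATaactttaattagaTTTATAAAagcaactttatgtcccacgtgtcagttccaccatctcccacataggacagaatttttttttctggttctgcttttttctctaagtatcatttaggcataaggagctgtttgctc
Mbnl1 start 2, chr3:60500929-60501178: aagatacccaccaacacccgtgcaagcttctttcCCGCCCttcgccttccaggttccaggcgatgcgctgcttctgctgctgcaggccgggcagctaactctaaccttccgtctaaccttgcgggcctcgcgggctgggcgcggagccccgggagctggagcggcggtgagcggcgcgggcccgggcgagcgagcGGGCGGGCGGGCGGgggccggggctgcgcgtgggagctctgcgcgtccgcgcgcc
Mbnl2 start 1, chr14:120275419-120275668: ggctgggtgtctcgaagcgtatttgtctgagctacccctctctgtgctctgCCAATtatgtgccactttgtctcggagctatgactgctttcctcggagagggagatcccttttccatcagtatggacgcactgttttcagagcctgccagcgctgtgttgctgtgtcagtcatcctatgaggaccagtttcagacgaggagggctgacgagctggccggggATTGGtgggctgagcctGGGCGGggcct
The windows differed in base composition, from a GC content of 38.0% at Mbnl1 start 1 to 73.6% at Mbnl1 start 2, where the median of all 32841 windows was 52.4%. Mbnl1 start 1 held TATAAA, found in 12.4% of all windows, and CCAAT, found in 33.9%, and Mbnl1 start 2 held neither but had 4 matches to GGGCGG, found in 32.7%. Mbnl2 held CCAAT and GGGCGG matches. Rbfox1 start 1 held no match to any of the 7 motifs and start 2 held a CAGCTG, found in 13.0%. CTANNNNTAG, found in 3.2% of all windows, was in none of the 12 member windows. These are matches of letters only, and the array did not measure which start was used.

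The culture comparisons moved few members. From ES cells to embryonic bodies 2 of 7 rose and none fell, beside 20.6% of all genes called and 12% called higher, which is a share near the background; the members' median change was 0.33 and that of all genes -0.03. From embryonic to cardiac bodies limma called 0 of 7, beside 11.9% of all genes, with 1 of 7 at an unadjusted p under 0.05, and from ES cells to cardiac bodies 2 of 7 rose, Celf2 (1.5 ± 0.32, limma adjusted p = 0.0097) and Mbnl1, beside 9.8% called and 6.19% called higher. The Celf2 call was lost without ES replicate 2 (1.18) or CB replicate 1 (1.37). Cardiac bodies kept their pluripotency markers, as given above, and the part of those cells in the member values was not tested. The embryonic body arrays differed in other cell types, with an erythroid list mean of 10.45 on replicate 1 and 5.98 on replicate 2 and a fibroblast list mean of 8.19 and 6.03. Celf2 read 6.21 and 7.07 on the same 2 arrays. The part of those cells in the Celf2 and Mbnl1 values was not tested.

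Against E17.5 hearts, cardiac bodies had lower signals for Rbfox1, Celf2, Mbnl1, Mbnl2 and Mbnl3, 5 of 7 members, beside 23.7% of all genes called in either direction and 11.6% called lower. The changes were -0.89 ± 0.23 for Rbfox1, -1.36 ± 0.32 for Celf2, -1.59 ± 0.29 for Mbnl1, -1.18 ± 0.26 for Mbnl2 and -1.38 ± 0.21 for Mbnl3, with limma adjusted p between 0.000406 and 0.0122. For each of these 5 genes both cardiac body arrays lay below both E17.5 arrays. The Rbfox1 and Celf2 calls were lost without CB replicate 2 (-0.79 and -1.22). That of Rbfox1 was also lost without E17.5 replicate 2 (-0.79), and those of Celf2 and Mbnl2 without E17.5 replicate 1 (-1.29 and -1.10). Celf1 (0.15) and Rbfox2 (-0.47) were not called. The members' median change was -1.18 and that of all genes -0.02.

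Cell content differed along with these values. The pluripotency list averaged 10.19 in cardiac bodies and 4.61 at E17.5, the fibroblast list 5.64 and 10.46, the endothelial list 5.36 and 9.17, and the cardiomyocyte list 11.22 and 12.37. The part of these cells in the member values was not tested, and in bulk RNA fewer cells of a type and less RNA per cell cannot be told apart.

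Between ES cells and E17.5 hearts, 6 of 7 members rose and none fell, beside 36.2% of all genes called and 17.8% called higher. Only Celf1, at 0.05 ± 0.16, was not called. The members' median change was 1.36 and that of all genes -0.01. From E17.5 to P1 1 of 7 fell, beside 5.13% called and 3.05% called lower; the count was 2 without either P1 array. From P1 to adult 3 rose (Rbfox1, Mbnl1, Mbnl2) and 2 fell (Rbfox2, Celf1), beside 30.2% of all genes called, 15.6% higher and 14.7% lower. From E17.5 to adult Rbfox1 and Mbnl1 rose and Rbfox2, Celf1 and Mbnl3 fell, 5 of 7 beside 36.1%, of which 18.1% higher and 18% lower; the Celf1 call did not hold with the exon-level median as the gene level, as given above, and the Mbnl3 change was -1.66 ± 0.21 (limma adjusted p = 5.07e-05). These comparisons share groups, so their calls are not independent of each other. From P1 to adult the macrophage and leukocyte list went from 5.81 to 7.20 and the fibroblast list from 10.08 to 8.89, and their part in the member values was not tested.

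**Figure D2:**
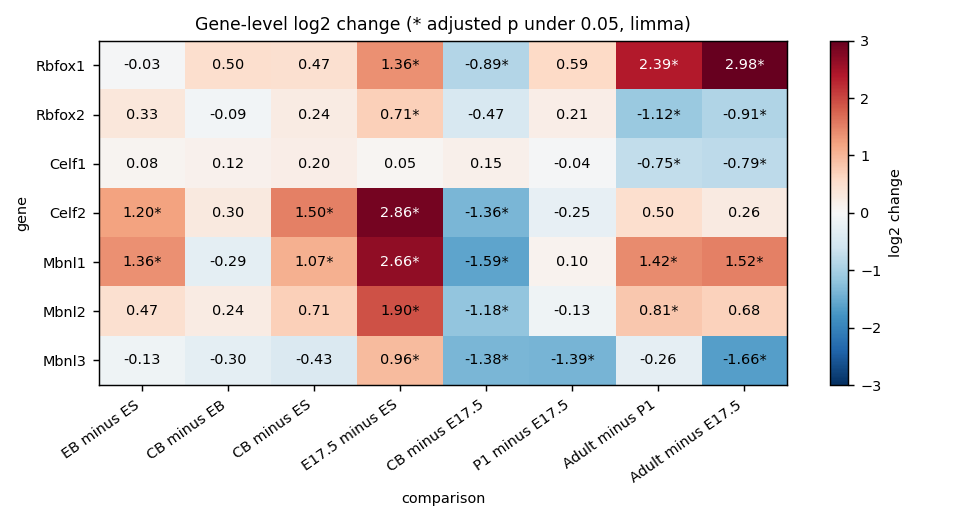
Gene-level log2 change of the 7 splicing factors (rows) in 8 comparisons (columns), coloured from blue (lower) to red (higher) with the value printed and an asterisk where limma's adjusted p was under 0.05. The E17.5 minus ES column holds 6 calls, all higher, and the CB minus E17.5 column 5 calls, all lower, while both adult columns hold calls in both directions.

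Exon-level changes were read from an index: each array's log2 value for the probe set, less the gene-level log2 value of that array. It stays constant when a probe set follows its gene. A change of the index was called at a limma adjusted p under 0.05 with a size of at least 1, for genes at or above the median in both groups and probe sets at or above it in at least 1. From P1 to adult 16 of 98 tested member probe sets were called, or 16.3%, beside 13.5% of all probe sets, and from E17.5 to adult 14 of 96, or 14.6%, beside 16.6%, so the members' shares were near the background. The first count was 8 without P1 replicate 1 and 10 without adult replicate 1, and the second 9 without adult replicate 1. Of the 16 and 14 calls, 3 and 2 were on Celf1 probe sets that may belong to its second row, as given below. The remaining comparisons held few calls. Between ES cells and E17.5 hearts 3 of 69 were called, or 4.35%, beside 1.78%; the count was 0 without ES replicate 1 and 1 without either E17.5 array. With limma 0 were called between ES cells and embryonic bodies (of 67, or 1 without ES replicate 2, with 3 at an unadjusted p under 0.05, beside 0.0555% called of all), between embryonic and cardiac bodies (of 74, with 2, beside 0.0127%), between ES cells and cardiac bodies (of 62, or 1 without ES replicate 2, with 9, beside 0.157%), between E17.5 and P1 (of 92, with 2, beside 0%) and between E17.5 hearts and cardiac bodies (of 78, with 7, beside 0.32%). A probe set can pass this filter through its higher group alone, which favours differences among those tested, for members and for all probe sets. That holds for falls as well. Among those called lower in adult hearts, Rbfox1 10433406, 10433407 and 10433408 had adult means of 5.6, 6.38 and 5.66. Those of Rbfox2 10430147 and 10430149 were 4.9 and 6.09, those of Celf1 10473781 and 10473782 were 5.93 and 3.97, and that of Celf2 10479951 was 6.35. These lay below the adult exon-level median of 6.41. The positions of the probe sets in the transcripts were not used here, and their numbers are not read as an order along the gene.

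Rbfox1 had the largest called index changes of the family, and some of its probe sets did not follow the adult rise. Over all 24 the signal changed from E17.5 to adult by -1.25 to 4.47, with a median of 3.22, and 10 of the 24 differed in index over the 6 groups by the F test, beside 12.9% of all. The F test has no level filter, and the Rbfox1 row lay below the median of all genes in every culture group. Probe sets 10433404 and 10433405, both among these 10, lay below the exon-level median in every group. Probe set 10433421 went from 3.59 on both E17.5 arrays to 8.23 and 7.84 in adult hearts and probe set 10433411 from 6.73 and 6.15 to 10.82 and 11.0. In contrast, probe set 10433406 read 7.15 and 6.55 at E17.5, 7.48 and 6.85 at P1, and 4.87 and 6.32 in adult hearts. It read 3.87 and 4.29 in ES cells, 2.99 and 3.5 in embryonic bodies and 4.11 and 3.15 in cardiac bodies, all below every heart array, so this probe set was highest in hearts around birth.

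Probe set 10433407 followed the same course, with 3.57 and 3.62 in ES cells, 7.30 and 7.45 at E17.5, 7.43 and 6.85 at P1 and 6.65 and 6.11 in adult hearts. Probe set 10433408 read 3.27 and 3.88 in ES cells, 6.27 and 6.34 at E17.5, 7.13 and 6.16 at P1 and 5.60 and 5.72 in adult hearts. From E17.5 to adult the index changed by -4.24 ± 0.49 for Rbfox1 10433406 (limma adjusted p = 0.00167) and by -3.98 ± 0.30 for 10433407 (limma adjusted p = 0.000592), and from P1 to adult by -3.38 ± 0.38 for 10433408 (limma adjusted p = 0.00169; not called without P1 replicate 1, -3.28). The signals of these probe sets themselves did not pass the test in adult hearts, the changes from P1 being -1.57, -0.76 and -0.98 (limma adjusted p = 0.053, 0.146 and 0.124), in a comparison where the gene rose by 2.39.

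Probe sets 10433404, 10433405 and 10433409 of Rbfox1 were also at or below their earlier heart levels in adults, with signal changes from E17.5 of 0.01, -0.08 and -0.34. They did not reach the median in the groups compared and were not tested. Of the 6 probe sets that stayed behind, 10433409 had the smallest p of the moderated F test over the 6 groups among those above the median in some group (limma adjusted p = 0.00152). Its index was 1.25 and 0.95 in ES cells, 0.01 and -0.25 at E17.5 and -3.87 and -3.02 in adult hearts. Its signal means lay between 5.85 and 6.66 in all groups, so this index mostly mirrored the gene row. The positive calls of Rbfox1 were smaller, and both probe sets had E17.5 means (3.59 for 10433421 and 6.44 for 10433411) below the exon-level median of 6.49 and entered the test only through adult hearts, where they were high. In turn 10433406, 10433407 and 10433408, called lower, had adult means of 5.6, 6.38 and 5.66, below the adult median of 6.41. They entered only through the earlier hearts, where they were high. From E17.5 to adult the index of 10433421 rose by 1.46 ± 0.30 (limma adjusted p = 0.0121; not called without E17.5 replicate 2, 1.37, or adult replicate 1, 1.22) and that of 10433411 by 1.48 ± 0.45 (limma adjusted p = 0.0497), the latter lost in 10 of 12 fits that left out 1 array, with changes from 1.1 to 1.87. Against the median of the other Rbfox1 probe sets the index of 10433411 changed by 1.42 and was not called (limma adjusted p = 0.0734).

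**Figure D3:**
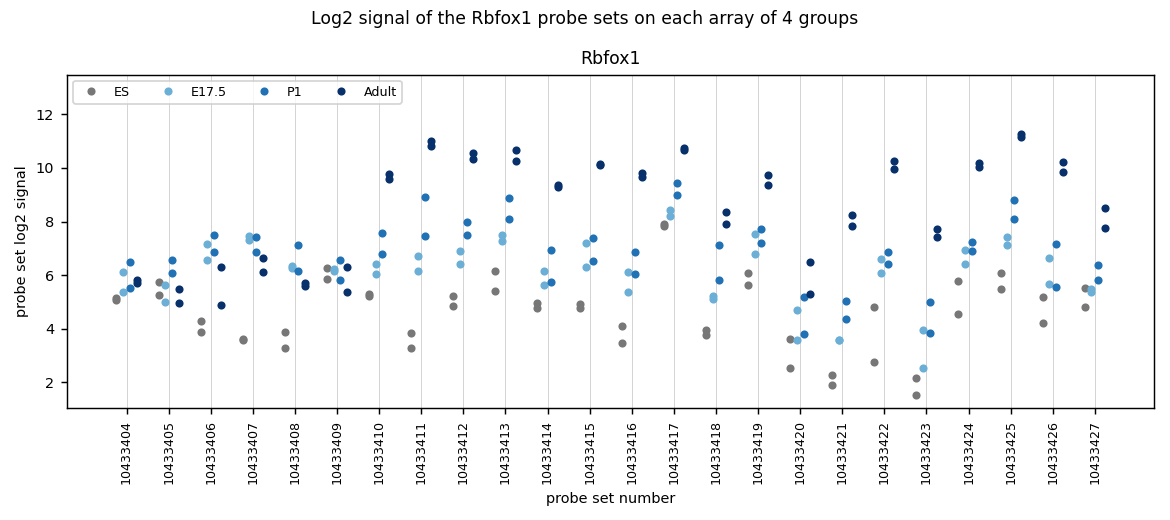
Log2 signal (vertical axis) of the 24 Rbfox1 probe sets (horizontal axis, by probe set number) on both arrays of ES cells and of E17.5, P1 and adult hearts. In adult hearts probe sets 10433404 to 10433409 lie at or below the highest P1 array, whereas those numbered from 10433410 on lie above both P1 arrays.

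Rbfox2 lost signal unevenly in adult hearts. Over all 20 probe sets the signal changed from P1 to adult by -3.18 to 0.78, with a median of -1.04. Probe set 10430147 read between 7.49 and 8.49 on the 10 other arrays and 5.22 and 4.57 in adult hearts, and probe set 10430150 read between 9.83 and 10.55 and then 7.74 and 7.67. Their signals changed by -3.15 ± 0.37 and -2.79 ± 0.30 from P1 (limma adjusted p = 0.000897 and 0.000669), beside -1.12 for the gene. Relative to the gene the index of Rbfox2 10430147 changed by -2.03 ± 0.34 (limma adjusted p = 0.00678) and that of 10430150 by -1.67 ± 0.21 (limma adjusted p = 0.00251).

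Probe set 10430151 of Rbfox2 had a course of its own. It read 5.74 and 6.28 in ES cells, 6.33 and 6.73 in embryonic bodies, 8.0 and 8.3 in cardiac bodies, 9.60 and 7.82 at E17.5, 9.64 and 9.58 at P1 and 6.51 and 6.36 in adult hearts. E17.5 replicate 2 lay below both cardiac body arrays. No Rbfox2 probe set was called in signal or index between cardiac bodies and either ES cells or embryonic bodies. By its means 10430151 was higher in cardiac bodies and perinatal hearts than in ES cells and back near its embryonic body level in adults. Its signal rose by 2.70 ± 0.51 from ES cells to E17.5 hearts (limma adjusted p = 0.00449), where 28.8% of all probe sets were called. Its index was not called from ES cells to E17.5 or from E17.5 to adult, with means of -2.91, -0.92 and -2.3 in these groups. From P1 to adult the index changed by -2.06 ± 0.48 (limma adjusted p = 0.0233). That call was lost without either P1 array (-2.08 and -2.05) or either adult array (-2.19 and -1.94). Probe sets 10430148 and 10430149 were also called lower, by -1.04 ± 0.21 and -1.30 ± 0.33 from P1 to adult and by -1.13 ± 0.21 and -1.40 ± 0.33 from E17.5 to adult. The call of 10430148 from P1 was lost without either P1 array (-1.07 and -1) and that from E17.5 without E17.5 replicate 2 (-1.07). The call of 10430149 from P1 was lost without either P1 array (-1.41 and -1.19) or adult replicate 1 (-0.83), and that from E17.5 without either E17.5 array (-1.58 and -1.21) or adult replicate 1 (-0.92). Against the median of the other Rbfox2 probe sets neither was called from P1 to adult (-1 and -1.15, limma adjusted p = 0.0557 and 0.079).

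The Rbfox2 probe sets called higher in index were not called in signal, with changes of 0.78 for 10430165 and 0.08 for 10430163 from P1 to adult (limma adjusted p = 0.203 and 0.868). Probe set 10430165 read 6.04 and 7.12 at P1 and 7.62 and 7.10 in adult hearts, an overlap, with an index change of 1.89 ± 0.44 (limma adjusted p = 0.0229) that was not called without P1 replicate 1 (1.31) or adult replicate 1 (1.58). Its change from E17.5 was 1.67 ± 0.44 (limma adjusted p = 0.0311), lost without any 1 of the E17.5 or adult arrays, with values from 1.36 to 1.97. Probe set 10430163 changed by 1.20 ± 0.34 from P1 (limma adjusted p = 0.0461), which 9 of 12 fits without 1 array lost, with changes from 0.88 to 1.53.

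For Celf1 the calls in the 8 comparisons were on 3 probe sets that fell further than its main row in adults. Probe set 10473780 read between 9.63 and 9.98 on the 10 earlier arrays and 7.26 and 7.07 in adult hearts. Probe set 10473781 read between 7.59 and 8.35 and then 6.09 and 5.77. Probe set 10473782 read 7.91 and 8.31 in ES cells, 6.10 and 6.78 at E17.5, 7.27 and 6.69 at P1 and 3.86 and 4.09 in adult hearts. From P1 to adult their index changed by -2.01 ± 0.20, -1.45 ± 0.23 and -2.26 ± 0.35 (limma adjusted p = 0.00131, 0.006 and 0.00507).

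That result depended on which Celf1 row stood for the gene. The 2 rows may cover different parts of the transcripts, and which probe sets each row summarises is not given in the sources used here, so the index against the main row need not compare a probe set with the rest of its own transcript. Against the second row, which itself changed by -2.55, the same index changes were -0.21, 0.36 and -0.46, and none was called. If that row summarises these same probe sets, such values are small by construction, so this alternative cannot decide the question. Between E17.5 and adult hearts the main row gave -1.90 for 10473780 and -1.12 for 10473781, and the second row -0.22 and 0.57, with the same limit. The call of 10473781 from E17.5 was also lost without E17.5 replicate 1 (-0.93) or adult replicate 2 (-1.02). Probe set 10473782 was called lower from ES cells to E17.5 hearts (-1.72 ± 0.35, limma adjusted p = 0.0483), a call that all 12 fits without 1 array lost, with changes from -2.12 to -1.31. Of the 21 Celf1 probe sets, all tested, 9 fell in signal from P1 to adult and none rose, beside 28.4% of all tested probe sets called in either direction.

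**Figure D4:**
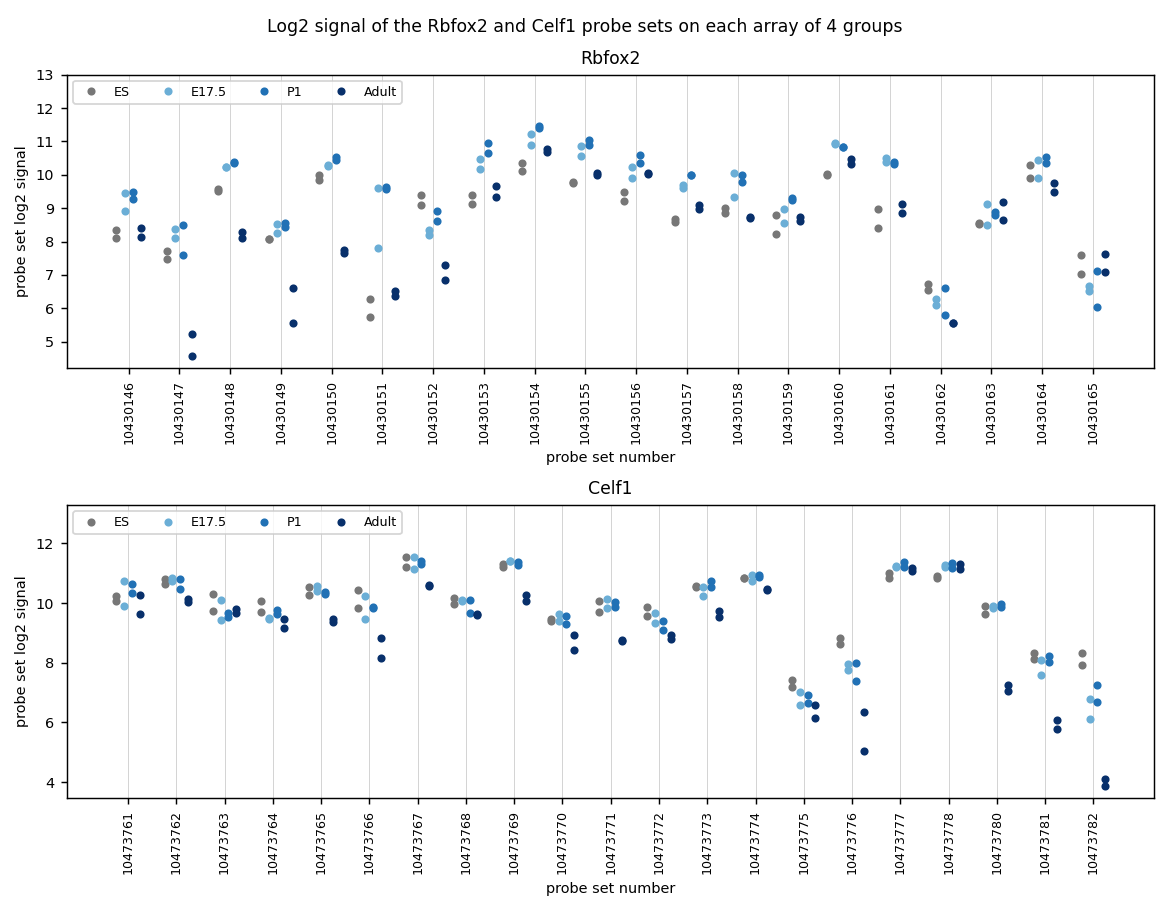
Log2 signal (vertical axis) of the 20 Rbfox2 probe sets (upper panel) and 21 Celf1 probe sets (lower panel), by probe set number (horizontal axis), on both arrays of ES cells and of E17.5, P1 and adult hearts. In adult hearts Rbfox2 10430147 drops to 5.22 and 4.57 and Celf1 10473780 to 7.26 and 7.07, while other probe sets of both genes stay close to their earlier values.

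Mbnl1 and Mbnl2 each had a single probe set whose signal was level until birth and then rose. Mbnl1 probe set 10492311 read 7.71 and 7.49 in ES cells, 7.81 and 7.85 in embryonic bodies, 7.22 and 7.15 in cardiac bodies, 7.97 and 8.01 at E17.5, 8.57 and 8.22 at P1, and 11.03 and 11.32 in adult hearts. Mbnl2 probe set 10417060 read 8.09 and 7.96, 8.30 and 8.42, 7.83 and 8.30, 8.22 and 8.06, 8.95 and 7.93, and 10.69 and 10.66 in the same groups. Both adult arrays were above all 10 others for both probe sets, and the genes as a whole had already risen by E17.5.

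From ES cells to E17.5 hearts the index therefore changed by -2.27 ± 0.30 for Mbnl1 10492311 (limma adjusted p = 0.00973) and by -1.78 ± 0.23 for Mbnl2 10417060 (limma adjusted p = 0.00901), while the signals themselves changed by 0.39 and 0.12 and were not called. The Mbnl1 call was lost without ES replicate 1 (-2.04) or either E17.5 array (-2.18 and -2.35), and the Mbnl2 call without either ES array (-1.84 and -1.72) or E17.5 replicate 2 (-1.79). From E17.5 to adult the index rose by 1.66 ± 0.30 and 1.85 ± 0.23 (limma adjusted p = 0.00801 and 0.00217). From P1 to adult it rose by 1.35 ± 0.30 for Mbnl1 (limma adjusted p = 0.0203; not called without P1 replicate 1, 0.97, or either adult array, 1.45 and 1.26) and by 1.42 ± 0.23 for Mbnl2 (limma adjusted p = 0.00666). The signals rose by 3.19 ± 0.29 and 2.53 ± 0.37 from E17.5 to adult (limma adjusted p = 0.000218 and 0.0013), where 35.6% of all tested probe sets were called. The next probe sets by the moderated F test moved less: Mbnl1 10492320 had an index of 1.16 and 0.88 in ES cells and -0.54 on both adult arrays, and Mbnl2 10417063 one of 0.25 and 0.27 and then -1.32 and -1.12. The third of each gene, Mbnl1 10492313 and Mbnl2 10417055, was not called over the 6 groups (limma adjusted p = 0.0991 and 0.0576).

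Celf2 had a probe set that was low in ES cells and higher in all later groups. Probe set 10479964 read 3.03 and 2.76 in ES cells, 6.77 and 7.68 in embryonic bodies, 7.47 and 6.96 in cardiac bodies, 8.93 and 8.61 at E17.5, 8.62 and 7.62 at P1 and 8.95 and 8.69 in adult hearts. Its index was -2.73 and -2.36 in ES cells and between -0.02 and 0.61 on the other 10 arrays, and it had the smallest p of the F test among the Celf2 probe sets (limma adjusted p = 0.00148). In ES cells both this probe set and the Celf2 gene row were below the medians of their levels, so the size of the difference from ES cells is poorly measured, and comparisons with ES cells were left out of the filtered test.

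By its index Celf2 probe set 10479951 went the other way in adults. It read 7.66 and 7.76 at E17.5, 7.99 and 6.54 at P1 and 5.80 and 6.89 in adult hearts, the last 2 groups overlapping. Its signal was not called in adults, with changes of -1.37 from E17.5 and -0.92 from P1 (limma adjusted p = 0.0885 and 0.252). Its index changed by -1.62 ± 0.36 from E17.5 (limma adjusted p = 0.016) and by -1.42 ± 0.36 from P1 to adult (limma adjusted p = 0.0302). The first call was lost without either E17.5 array (-1.74 and -1.51) or adult replicate 1 (-1.12), and the second without either P1 array (-1.12 and -1.72) or adult replicate 1 (-0.92). Probe set 10479954, the second by the F test (limma adjusted p = 0.012), had an index of 0.27 and -0.09 in ES cells and between 1.39 and 2.15 elsewhere, with the same limit in ES cells, and the third was 10479951 (limma adjusted p = 0.0354).

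Mbnl3 had no called probe set in the 8 comparisons. It lay below the median of all genes in cardiac bodies, P1 and adult hearts, so that 7 of its 12 probe sets were tested between ES cells and E17.5 hearts and none in comparisons with those 3 groups. Its 3 leading probe sets by the moderated F test were 10604536, 10604540 and 10604537, none called over the 6 groups (limma adjusted p = 0.0858, 0.101 and 0.145). Probe set 10604540 had an index of -0.45 and 0.74 at E17.5 and between 1.09 and 1.79 on the other arrays.

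**Figure D5:**
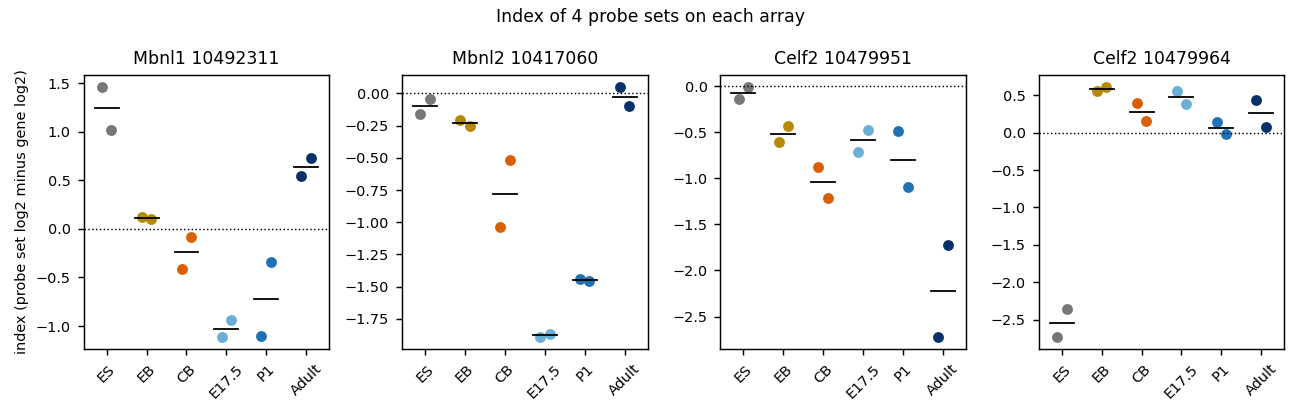
Index (probe set log2 minus gene log2, vertical axis) of Mbnl1 10492311, Mbnl2 10417060, Celf2 10479951 and Celf2 10479964 on the 12 arrays, by group (horizontal axis); points are arrays, bars are means and the dotted line marks an index of 0. The Mbnl1 and Mbnl2 probe sets have their lowest means at E17.5 and return upward in adult hearts, and Celf2 10479964 is low, at -2.73 and -2.36, in ES cells.

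The other splicing regulators, a list of 30 genes, changed in both directions. From ES cells to E17.5 hearts 7 rose and 7 fell, beside 36.2% of all genes called, with the muscle regulators Rbm24 (4.58 ± 0.33) and Rbm20 (3.86 ± 0.21) highest and the epithelial regulator Esrp1 (-2.18 ± 0.18) and the exon repressor Ptbp1 (-1.69 ± 0.20) lowest. In adult against E17.5 hearts 4 rose and 10 fell, beside 36.1% of all genes called, among them Hnrnph1 (-3.17 ± 0.37), Hnrnpf (-3.05 ± 0.16), Srsf1 (-2.43 ± 0.26) and Tardbp (-2.21 ± 0.28). Rbfox2 (-0.91) and Celf1 (-0.79) fell in the same comparison by less than these, and Rbfox1 and Mbnl1 rose. The list's median change was -0.29 and that of all genes 0.05. In cardiac bodies against E17.5 hearts 6 of the 30 rose, led by Esrp1 (2.03), and 5 fell, led by Rbm20 (-1.39), beside 23.7% of all genes called.

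Genes known as targets of these factors or respliced as muscle matures were read at exon level, without the members themselves. The list was chosen with earlier results of these data known, so an excess over the background is partly built in. An index also changes where a probe set does not scale with a steep rise of its gene, and this was not tested apart. From ES cells to E17.5 hearts 80 of 1184 tested probe sets were called, or 6.76%, beside 1.78% of all, in 23 of 47 genes, or 48.9%, beside 12% of all genes with a tested probe set. Capzb 10509631, in a subunit gene of the actin-capping protein, rose in index by 5.07 ± 0.41 and Ank3 10363805, in an ankyrin gene, by 5.11 ± 0.33, while Tnnt2 10350175, in cardiac troponin T, changed by -5.45 ± 0.47 as its gene rose by 7.13. From embryonic to cardiac bodies, where no member probe set was called, 3 of 1089 target probe sets were, or 0.275%, beside 0.0127% of all, including Capzb 10509631 (4.11 ± 0.41) and Palld 10578856 (5.53 ± 0.39). For adult against E17.5 hearts 286 of 1596 were called, or 17.9%, beside 16.6% of all, which is near the background; the largest were Cacna1c 10547324 (-5.11 ± 0.78), in the cardiac calcium channel gene, and Dst 10345256 (4.31 ± 0.58).

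Some other genes tracked the members over the 12 arrays, by the correlation of log2 values as a description. The 3 most like Rbfox1 were Nceh1 (r = 0.992), Dnajc28 (0.989) and Acyp2 (0.989). Those most like Celf2 were Asah2 (0.993), the muscle transcription factor gene Mef2c (0.985) and Mff (0.981), and those most like Mbnl2 were Ptgr2 (0.987), Gphn (0.983) and the splicing regulator gene Qk (0.982). Mbnl1 was followed by Phka1 (0.99), Glt28d2 (0.99) and Sh3glb1 (0.988), and Celf1 by Tor1b (0.988), Wwox (0.98) and Gtf2b (0.978). For Rbfox2 the values were lower, at 0.953 for Btbd1, 0.937 for Cox15 and 0.937 for Abracl, and for Mbnl3 lower still, at 0.906 for Slfn9, 0.898 for Tcf19 and 0.89 for Zbtb8b.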

How the data were processed

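RNA of 12 mouse samples was hybridised to Affymetrix mouse gene arrays, and each array was deposited at gene level and at exon level. The deposited values are on a log2 scale; the submitters' processing notes name RMA and Affymetrix Power Tools for them, with no version in the sources used here. RMA subtracts background, normalizes between arrays and summarises probes, which compresses low signals. Arrays carry no read depth; their number, 2 per group, limits the precision. The 6703 rows shared by both levels were identical, which was used to check that the arrays of the 2 levels match.

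Symbols came from the platform annotation and were updated through RefSeq names. Of several rows of a gene, the one with the highest mean was used. Models with 6 group means on all 12 arrays were fitted to gene values and to the index (limma 3.58.1, functions lmFit and eBayes, under R 4.3.3), and p-values were adjusted by Benjamini-Hochberg over 19920 genes or over the probe sets that passed the filter in each of 8 comparisons; genes with at least 4 probe sets (15108, with 197783 probe sets) entered the exon-level fit. All 15 pairs of groups were fitted for the order of levels. The scripts were tested on simulated data. For reading, data.table (version 1.17.8) served. Figures used matplotlib 3.10.9 under Python 3.11.15, with numpy 2.4.6 and pandas 2.3.3.

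The text names all 7 members, every called member probe set, the 3 probe sets per member with the smallest F test p among those above the median, up to 4 called other regulators and up to 6 called target probe sets per comparison by size, and the 3 genes most like each member. The members and lists were chosen with earlier results of these data known. Alternatives were the replicate number as a block, quantile normalization, other gene levels, no level filter and leaving out each array.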

Additional observations from a re-analysis of the deposited data

How the results depend on the processing

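The members called from ES cells to cardiac bodies fell from 2 to 1 under quantile normalization, with the median of exon-level probe sets as the gene level, and with the mean of all rows of a gene; the last also left 1 of 2 from ES cells to embryonic bodies. The other gene-level counts of members kept within 1.5 times under these alternatives. Mbnl2 gained a call from E17.5 to adult under quantile normalization (0.85) and the exon-level median (0.92), and Rbfox2 one between cardiac bodies and E17.5 under quantile normalization (-0.56). Small uncalled changes turned sign: Celf1 from E17.5 to P1 was 0.01 under quantile normalization, 0 under the exon-level median, 0.02 under the mean of rows and 0.08 on its other row, and from ES cells to E17.5 -0.03, -0.03 and -0.1 under the last 3 of these. On those other rows, an alternative chosen after seeing the data, Celf1 was -0.03 from ES cells to embryonic bodies and Celf2 -0.05 from embryonic to cardiac bodies and 0.25 from E17.5 to P1. Under the exon-level median Mbnl3 was 0.15 from ES cells to embryonic bodies and Celf2 0 from E17.5 to P1.

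Same-numbered arrays did not deviate together over genes (of 15 correlations between groups, from -0.18 to 0.29, 2 were over 0.1), so the numbers were not taken to pair samples. With the replicate block, no gene-level call of a member changed, and 2 index calls were lost, those of Rbfox2 10430163 from P1 to adult (limma adjusted p = 0.0681) and Celf1 10473782 from ES cells to E17.5 (limma adjusted p = 0.0613). Target genes with a called probe set were counted here with the members in the list, unlike above. The main fit had 5 from ES cells to embryonic bodies, 2 from embryonic to cardiac bodies, 11 from ES cells to cardiac bodies and 3 between cardiac bodies and E17.5. It had 26 from ES cells to E17.5. With the block the first 4 of these numbers were 0, 1, 7 and 1. Without the filter on level these 4 numbers were 16, 9, 26 and 6, and 45 from ES cells to E17.5, and the member probe sets called were 1, from ES cells to embryonic bodies, 1 from ES cells to cardiac bodies and 12 from ES cells to E17.5. Against the median of the other probe sets, Mbnl3 10604540 changed by -0.03 from P1 to adult and Celf2 10479954 by -0.2 from E17.5 to adult. Signals in place of the index gave 0.39 for Mbnl1 10492311 and 0.12 for Mbnl2 10417060 from ES cells to E17.5. Against the other Celf1 row, chosen after seeing the data, 10473781 changed by 0.36 from P1 and 0.57 from E17.5 to adult, and 10473782 by 0.01 from E17.5. That row may summarise these same probe sets, as given above, which would make such values small by construction. The causes were not tested.

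Fits that left out 1 array called 1 to 2 members from ES cells to embryonic bodies, 0 to 3 from ES cells to cardiac bodies, 1 to 2 from E17.5 to P1, 4 to 5 from P1 to adult, 5 to 6 from E17.5 to adult, 3 to 5 between cardiac bodies and E17.5 and 5 to 6 from ES cells to E17.5. Member probe sets called ranged from 0 to 1 from ES cells to embryonic or cardiac bodies, 8 to 16 from P1 to adult, 9 to 14 from E17.5 to adult and 0 to 3 from ES cells to E17.5. Uncalled changes that turned sign ranged, from ES cells to embryonic bodies, from -0.11 to 0.05 for Rbfox1 and 0 to 0.17 for Celf1. From embryonic to cardiac bodies the range was -0.26 to 0.07 for Rbfox2 and -0.13 to 0.73 for Celf2. From E17.5 to P1 it was -0.1 to 0.02 for Celf1, -0.67 to 0.18 for Celf2, -0.46 to 0.65 for Mbnl1 and -0.63 to 0.37 for Mbnl2, and from ES cells to E17.5 -0.04 to 0.14 for Celf1. For the index it was -0.02 to 0.08 for Celf1 10473780, -0.16 to 0 for Rbfox2 10430147 and -0.3 to 0.02 for Mbnl3 10604536 from ES cells to E17.5, and -0.31 to 0.05 for Celf2 10479954 and -0.11 to 0.29 for Mbnl3 10604540 from P1 to adult. Leaving out arrays was not run for the target genes. With 2 arrays per group, small changes cannot be resolved.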
